A study of Arabidopsis thaliana with 35 samples.

Results

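The arrays described here compare the hypocotyl, the embryonic stem between root and cotyledons, at a later and an earlier harvest in Arabidopsis thaliana seedlings that were never warmed. Members were chosen by array title: 3 arrays of hypocotyl kept at 20 °C and harvested at ZT 7 of day 6, and 3 arrays of hypocotyl kept at 20 °C and harvested at ZT 10 of day 5. ZT counts hours from the start of the light period. They are 6 of the 35 arrays of the series, which also holds cotyledons and roots and seedlings moved to 28 °C, with 3 arrays per group except 1 root group of 2. Both groups are the natural accession RRS-7, grown on ATS medium for 5 days at 20 °C under white LEDs in days of 16 h light and 8 h dark. They served as the unwarmed controls for the 3 h and the 24 h temperature treatments. The later harvest came 21 h after the earlier one, so its seedlings were older but were taken 3 h earlier in the day, and age and hour of day cannot be told apart in this comparison.

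In plants, transcript levels of many genes cycle with the day under the circadian clock, a network of factors that repress one another, and under light itself. The hypocotyl elongates by cell expansion with little division, and its growth rate follows light, clock and auxin signals. Its outer cells hold chloroplasts and a few stomata, so genes of photosynthesis and of stomatal development can be measured there.

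The data were log2 expression values, 1 value per probe set and array. Array medians over the series ran from 5.65 to 5.93. Within the later and within the earlier group, arrays correlated at Pearson r of 0.996 to 0.997 across all probe sets. Later arrays correlated with earlier ones at 0.993 to 0.996. In all, 13355 genes were measured by a probe set that names 1 gene. A gene is said to have risen or fallen here when its adjusted p in limma was under 0.05. Nothing in the labels says whether replicates came from separate growths, so p-values measure the spread between arrays of a group, which may be technical. That spread was pooled over the 35 arrays of the series, so a standard error (SE) is not the scatter of the 6 arrays alone. In whole organs, fewer cells of a type and less RNA per cell cannot be told apart.

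The organ label was checked against markers. The 11 measured genes of a nuclear photosynthesis list of 62 summed to 42261 to 42352 linear units on the earlier hypocotyl arrays and to 45215 to 45824 on the later ones, against 80227 to 87426 on the 20 °C cotyledon arrays and 805 to 1123 on the 20 °C root arrays. The 8 measured root markers of 16 summed to 5872 to 7626 on the earlier and 7056 to 7714 on the later hypocotyl arrays, to 2910 to 4078 in cotyledons and to 15659 to 17724 in roots. The hypocotyl arrays thus lay between cotyledon and root on both lists. The shoot apex marker CLV3 was at a log2 level of 3.5 to 3.8 on these arrays, and at 3.4 to 3.8 in cotyledons and roots at 20 °C.

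Between the harvests, 259 of the 13355 genes changed, which is 1.94% of those tested. Of these, 144 rose (1.08%) and 115 fell (0.861%). Changes were mostly small: the median was 0.52 on the log2 scale among genes that rose and -0.47 among those that fell, and 15 rises and 11 falls reached 2-fold. The median change of all genes was 0.01, and the median standard error was 0.11 (n = 3 against 3). At an unadjusted p under 0.05 there were 1752 genes. The 3 later arrays lay wholly above the 3 earlier ones for 1474 genes (11%) and wholly below for 1267 (9.49%), together 2741 (20.5%), among them 143 of the 144 that rose and 114 of the 115 that fell. The count depended on single arrays: it was 138 without earlier replicate 1, 137 without earlier replicate 2, 169 without later replicate 1 and 156 without later replicate 2. It was 152 when arrays were centred on reference genes.

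**Figure D1:**
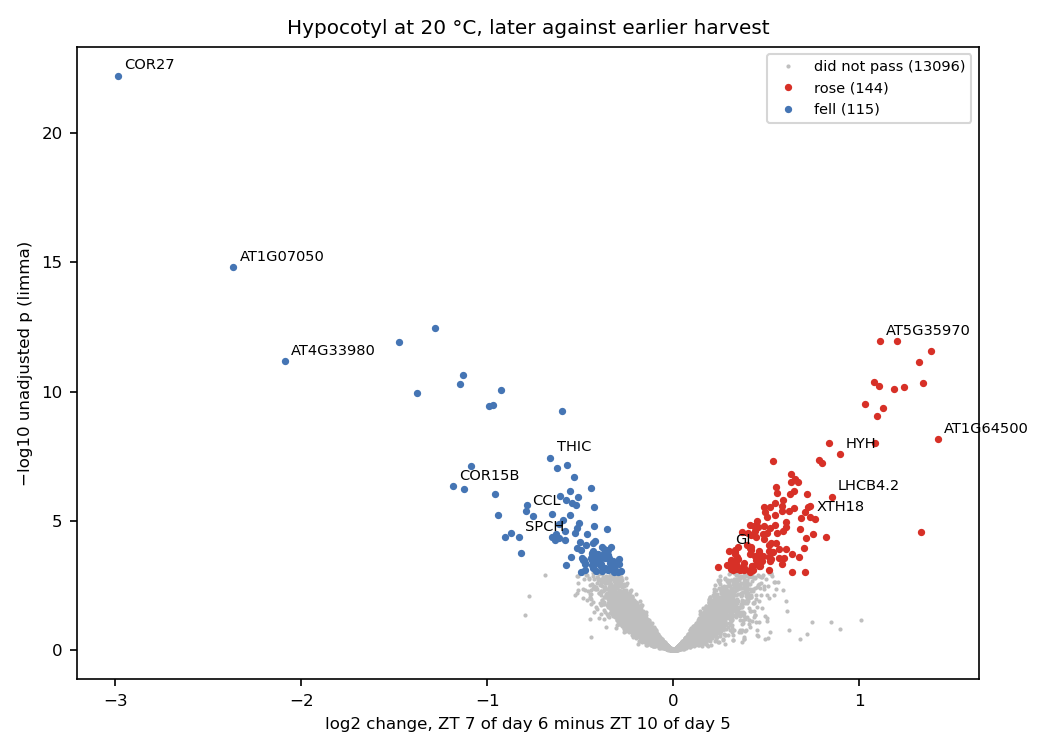
Change of each gene between the harvests (x axis, log2 change, ZT 7 of day 6 minus ZT 10 of day 5) against its unadjusted limma p (y axis, −log10); each dot is 1 gene, red where it rose (144 genes), blue where it fell (115 genes) and grey where it did not pass. COR27, at -2.98, lies farthest from the rest on both axes, and the rises end at 1.42.

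The largest fall was that of COR27, a cold-regulated gene whose protein acts on the clock and in light signalling. Its log2 level was 7.66, 7.59 and 7.44 on the earlier arrays and 4.36, 4.81 and 4.57 on the later ones. All later arrays were far below all earlier ones, and the change was -2.98 ± 0.11 (SE, n = 3 against 3; limma adjusted p = 8.22e-19), which left 0.13 times the earlier level. AT4G33980, entered in the clock-output list as COR28, a relative of COR27, had values of 6.50, 6.71 and 6.23 earlier and 4.13, 4.98 and 4.07 later. It fell by 2.09 ± 0.20 (limma adjusted p = 1.03e-08), more than the spread of the arrays, though later replicate 2 stood above the other later arrays. The remaining measured member of that list, CDF5 (AT1G69570), a factor of the family that represses flowering genes, had a change of 0.11 (limma adjusted p = 0.72).

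Of 23 listed genes of the clock core, 2 were measured. GI, a clock gene that also controls flowering, was at 7.99, 8.03 and 8.04 earlier and at 8.29, 8.34 and 8.34 later. The groups did not overlap, and the rise of 0.30 ± 0.07 passed (limma adjusted p = 0.0128), but its call was lost under 6 of 18 alternatives, in which the adjusted p reached 0.138. These 6 included leaving out earlier replicate 1, earlier replicate 2 or later replicate 2. RVE6 (AT5G52660), a MYB-like factor related to the core clock proteins, had a change of -0.01 (limma adjusted p = 0.987). HYH, a bZIP factor that acts with HY5 in light signalling, was the measured member of the light-signalling list. It was at 5.79, 6.12 and 6.09 earlier and 6.81, 6.95 and 6.93 later, and rose by 0.90 ± 0.12 (limma adjusted p = 1.24e-05).

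In the cold and dehydrin list, 2 of 4 measured genes fell and none rose, where 0.861% of all genes fell. The median change was -0.42 against 0.01 for all genes. Both that fell encode chloroplast proteins that accumulate in the cold. COR15B was at 7.37, 7.56 and 6.85 earlier and at 6.19, 6.00 and 6.04 later, and fell by 1.19 ± 0.19 (limma adjusted p = 0.000145). The later arrays were close to each other and the earlier ones were spread, with replicate 3 lowest. COR15A fell by 0.65 (limma adjusted p = 0.00481), a call that was lost without earlier replicate 1, where the change was -0.48 with an adjusted p of 0.106. COR47, a dehydrin, had -0.19 and LTI30, another dehydrin, had 0.17, and neither passed.

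Other large falls were mostly of genes that carry only a locus code. AT1G07050 was at 6.84, 7.13 and 6.67 earlier and at 4.46, 4.45 and 4.63 later, and fell by 2.36 ± 0.16 (limma adjusted p = 1.04e-11). AT4G16146 was at 8.63, 8.83 and 8.59 earlier and at 7.20, 7.38 and 7.05 later, and fell by 1.47 ± 0.13. In both the groups were far apart. AT2G23910, AT4G32340, AT5G62360, AT2G21130 and AT1G17665 fell by 1.38, 1.28, 1.14, 1.13 and 1.09, and AT3G62550 fell by 0.99. SUFE2, a protein that helps assemble iron-sulphur clusters, was at 6.73, 6.86 and 6.53 earlier and at 5.38, 5.98 and 5.39 later, and fell by 1.12 ± 0.18 (limma adjusted p = 0.000176).

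**Figure D2:**
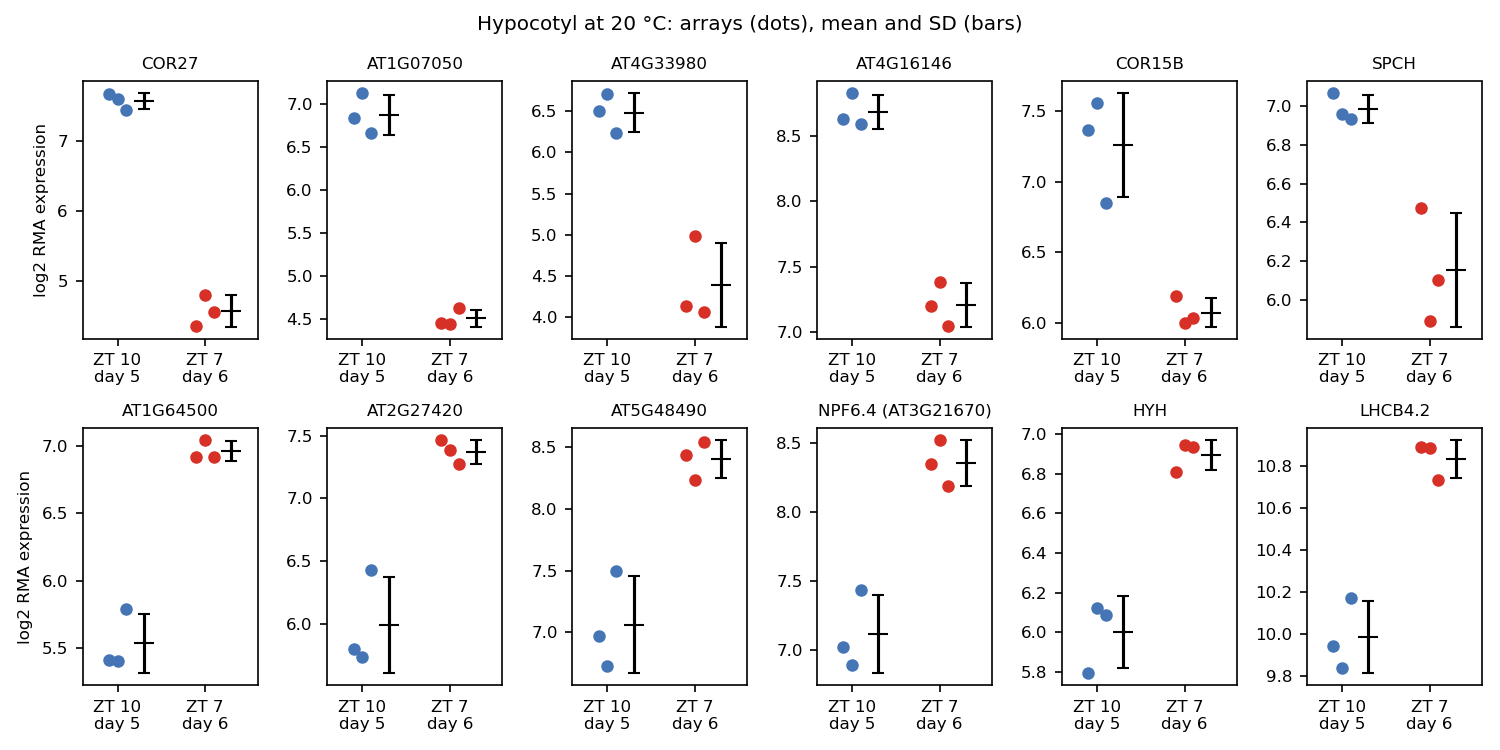
Log2 expression (y axis, a separate scale in each panel) of 12 genes on each of the 3 earlier (blue) and 3 later (red) hypocotyl arrays at 20 °C, with the mean and SD of each group as a bar. The upper row holds 6 genes that fell, from COR27 to SPCH, and the lower row 6 that rose, from AT1G64500 to LHCB4.2; in each panel all later arrays lie on 1 side of all earlier arrays.

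Among the genes that rose most, AT1G64500 was at 5.41, 5.41 and 5.79 earlier and at 6.92, 7.05 and 6.92 later, and rose by 1.42 ± 0.18 (limma adjusted p = 3.73e-06). AT2G27420 was at 5.80, 5.74 and 6.43 earlier and at 7.46, 7.38 and 7.27 later, and rose by 1.39 ± 0.13. AT5G48490 was at 6.97, 6.73 and 7.50 earlier and at 8.44, 8.24 and 8.55 later, and rose by 1.34 ± 0.14. In each, earlier replicate 3 was the highest earlier array and still lay below the later ones. AT2G19650, AT5G15950, AT1G73480, AT1G55960, AT5G35970, AT2G41250 and AT1G65490 rose by 1.33, 1.21, 1.19, 1.13, 1.11, 1.11 and 1.1. AT4G19430 was at 3.59, 3.63 and 3.41 earlier and at 4.38, 5.94 and 4.29 later. Later replicate 2 decided its size: the rise was 1.33 ± 0.27 (limma adjusted p = 0.00358), and without that array it was 0.80 with an adjusted p of 0.076.

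In the family of nitrate and peptide transporters, set up after the data were seen, 2 of 11 measured genes rose and none fell, where 1.08% of all genes rose. AT3G21670, which RefSeq also names NPF6.4, was at 7.02, 6.89 and 7.44 earlier and at 8.35, 8.53 and 8.19 later, and rose by 1.24 ± 0.13 (limma adjusted p = 6.12e-08). AT2G26690, also NPF6.2, rose by 0.63 ± 0.10, and later arrays lay above earlier ones for both. Of 19 SWEET and other sugar transporters, SWEET2, which moves sugar across the vacuole membrane, rose by 0.61 (limma adjusted p = 0.0118). Its call was lost without earlier replicate 2, without earlier replicate 3 or without later replicate 1, where the adjusted p reached 0.0797. MTP11, a manganese transporter, rose by 0.49 (limma adjusted p = 0.000597).

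Of the 11 measured nuclear photosynthesis genes, 1 rose, LHCB4.2, an antenna protein of photosystem II. None fell, and the median change was 0.06, against 0.01 for all genes, of which 1.08% rose. LHCB4.2 was at 9.94, 9.84 and 10.17 earlier and at 10.89, 10.89 and 10.73 later, and rose by 0.85 ± 0.14 (limma adjusted p = 0.00029). Its close relatives LHCB4.1 and LHCB4.3 had 0.06 and -0.21, and neither passed. None of 4 chlorophyll synthesis genes passed, nor any of 69 plastid-encoded genes, whose median change was -0.10 here and 0.21 in the cotyledon. Of single plastid proteins outside the list, NdhN, a subunit of the chloroplast NDH complex, fell by 0.38, FTSZ2-1, which divides plastids, fell by 0.29, and OTP81, a plastid RNA-editing factor, fell by 0.49. These 3 calls were lost under 5, 7 and 7 of 18 alternatives.

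In carbon and vitamin metabolism, PWD (AT5G26570), a dikinase needed for starch breakdown, was at 9.39, 9.40 and 9.22 earlier and at 8.87, 8.88 and 8.94 later. It fell by 0.44 ± 0.07 (limma adjusted p = 0.000169) and was the member of 4 measured starch genes that passed. THIC, an enzyme of thiamine synthesis, was at 10.76, 10.82 and 10.75 earlier and at 10.11, 10.14 and 10.10 later, and fell by 0.66 ± 0.09 (limma adjusted p = 1.63e-05). The arrays of a group differed by less than 0.1 in THIC. PPDK, which makes phosphoenolpyruvate from pyruvate, rose by 0.80 ± 0.11 (limma adjusted p = 2.43e-05). GR1, a glutathione reductase, rose by 0.46, VTC4, an enzyme of ascorbate synthesis, rose by 0.33, and AOR, an alkenal reductase, rose by 0.42. Of these, VTC4 lost its call under 5 alternatives and AOR under 1.

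For growth-related lists, the shares of all genes to set beside the counts were 1.08% up and 0.861% down. Of 14 measured expansins, which loosen cell walls, none passed, with a median change of 0.15 and a range of -0.22 (EXPA15) to 0.41 (EXLA2). Of 9 measured xyloglucan endotransglucosylases, XTH18 rose, from 6.19, 6.00 and 6.31 to 7.20, 6.67 and 6.84, by 0.74 ± 0.14 (limma adjusted p = 0.00121). No member of 5 measured Aux/IAA genes and none of 4 measured GH3 genes passed. These are targets of auxin, and GH3.17, which conjugates auxin to amino acids, had 0.49 without passing. 1 GH3 gene rose under some alternatives, array weights among them. AFR, an F-box protein of far-red light signalling, rose by 0.76 (limma adjusted p = 0.00139), and SKP2A, an F-box protein of the cell cycle, rose by 0.56 (limma adjusted p = 0.00373). Without earlier replicate 1 the call of SKP2A was lost (adjusted p = 0.068).

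Of 51 measured UDP-glycosyltransferases, which attach sugars to hormones and other small molecules, 3 rose and none fell, with a median of 0.02. Of all genes, 1.08% rose and 0.861% fell. This family and those below were set up after the data were seen. UGT88A1 was at 8.52, 8.60 and 8.83 earlier and at 9.28, 9.42 and 9.22 later, and rose by 0.66 ± 0.10 (limma adjusted p = 8.64e-05). UGT74D1 rose by 0.55 and UGT72E3 by 0.45. UGT72E3 lost its call under 7 alternatives. IAGLU, an auxin glucosyltransferase whose symbol lies outside that family's naming, rose by 0.59 (limma adjusted p = 0.02) and lost its call under 4. No gene passed among 23 cytochromes P450, 22 bZIP factors, 22 beta glucosidases, 14 glutathione S-transferases or 7 WRKY factors. Each of these families holds only genes that carry its name as a symbol or synonym. HYH, a bZIP factor, lies outside the bZIP family as counted here, and rose by 0.90 (limma adjusted p = 1.24e-05). Of 7 factors with a numbered bHLH name, bHLH34 rose by 0.44 (limma adjusted p = 0.00336). SPCH, which fell by 0.83, is not among these 7.

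Other enzymes and small proteins with a symbol also changed. THI2.2, a thionin, was at 10.54, 10.57 and 10.89 earlier and at 11.61, 11.44 and 11.43 later, and rose by 0.82 ± 0.17 (limma adjusted p = 0.00489). ARD4, an acireductone dioxygenase of the methionine cycle, rose by 0.50 (limma adjusted p = 0.00119), and MGL, a methionine lyase, rose by 0.53 (limma adjusted p = 0.0214). AAH, an allantoate amidohydrolase, rose by 0.46 and JAL34, a jacalin-related lectin, rose by 0.31. MGL and JAL34 lost their calls under 6 alternatives each and AAH under 4. Of 29 serine carboxypeptidase-like genes, scpl35 fell by 0.55 and SCPL49 fell by 0.43, and none rose, where 0.861% of all genes fell. The call of scpl35 was lost under 5 of 18 alternatives, with an adjusted p of up to 0.105: centring on reference genes, and leaving out earlier replicate 1 or 2 or later replicate 1 or 3. Of 8 calmodulin-like genes, CML42 fell by 0.40 (limma adjusted p = 0.0301), a call lost under 6 alternatives, 5 of which left out 1 array.

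For division and the cytoskeleton, all 9 measured histone genes, each an H2B, had negative changes, with a median of -0.24. AT3G53650 passed, where it fell by 0.49 (limma adjusted p = 0.0203). That call was lost without earlier replicate 1, earlier replicate 2 or later replicate 2, and with centring on reference genes. None of 5 measured genes of the cell cycle and DNA replication passed, with a median of -0.06. TUB9, a beta-tubulin, was at 9.80, 9.93 and 9.72 earlier and at 9.13, 9.34 and 9.27 later, and was the member of 7 measured tubulins that passed. It fell by 0.57 ± 0.08 (limma adjusted p = 2.72e-05).

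SPCH, the factor that starts the stomatal lineage, was at 7.07, 6.96 and 6.93 earlier and at 6.47, 5.89 and 6.10 later. The groups did not overlap, and it fell by 0.83 ± 0.17 (limma adjusted p = 0.00492). Without later replicate 2, the lowest array, the change was -0.70 with an adjusted p of 0.0747. MUTE and FAMA, which act after SPCH, had -0.19 and -0.16 and did not pass. The sum of the 3 over linear units was 171 to 184 on the earlier and 99 to 135 on the later arrays. On the same arrays none of the 8 measured root markers passed, with a median change of 0.18. Of 2 measured markers of cotyledon and leaf, LHCB4.2 rose by 0.85 and RCA had 0.13, and their sum was 10512 to 10692 linear units on the earlier and 11817 to 12895 on the later arrays, without overlap. The part of tissue makeup in these changes was not tested.

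None of 10 measured heat shock genes passed, with a median of -0.04 and a range of -0.53 to 0.31. Fes1B, a partner of HSP70, lies outside that list and fell by 0.46 (limma adjusted p = 0.00388). None of 6 flavonoid, 4 iron-deficiency, 3 glucosinolate, 3 gibberellin, 2 touch-response or 3 seed-reserve genes passed. None of 7 reference genes passed, and their changes ran from -0.10 to 0.10.

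The same interval was sampled in cotyledons and roots at 20 °C and in hypocotyls at 28 °C, on other arrays. In the cotyledon 2345 genes changed (17.6%, 6.82% up and 10.7% down), in the root 56 (0.419%, 0.165% up and 0.255% down) and in the warmed hypocotyl 394 (2.95%, 1.57% up and 1.38% down). Of the 144 genes that rose in the unwarmed hypocotyl, 119 also rose in the cotyledon, which is 82.6% of the hypocotyl rises and 13.1% of the 911 cotyledon rises. Of the 115 that fell, 88 also fell there, which is 76.5% of the hypocotyl falls and 6.14% of the 1434 cotyledon falls. None passed in opposite directions in these organs. The genes that rose in the hypocotyl had a median change of 0.74 in the cotyledon, and those that fell had -0.62. In the root, 7 of the 144 also rose and 11 of the 115 also fell.

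There were 16 genes that passed in the same direction in hypocotyl, cotyledon and root at 20 °C. COR27 fell by 4.43 in the cotyledon and by 1.81 in the root, and AT4G33980 fell by 3.48 and 1.45. CCL was at 11.56, 11.63 and 11.49 on the earlier and at 10.78, 10.74 and 10.80 on the later hypocotyl arrays, and fell by 0.79 in hypocotyl, by 0.83 in cotyledon and by 0.79 in root. THIC fell by 0.66, 0.93 and 0.45. AT2G26690 (NPF6.2) rose by 0.63, 1.19 and 0.44. The others were AT3G56290, AT3G56080, AT4G33550, AT3G13040 and AT2G23120, which rose, and AT2G43550, AT1G56300, AT5G62360, AT4G32340, AT2G23910 and AT4G16146, which fell.

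**Figure D3:**
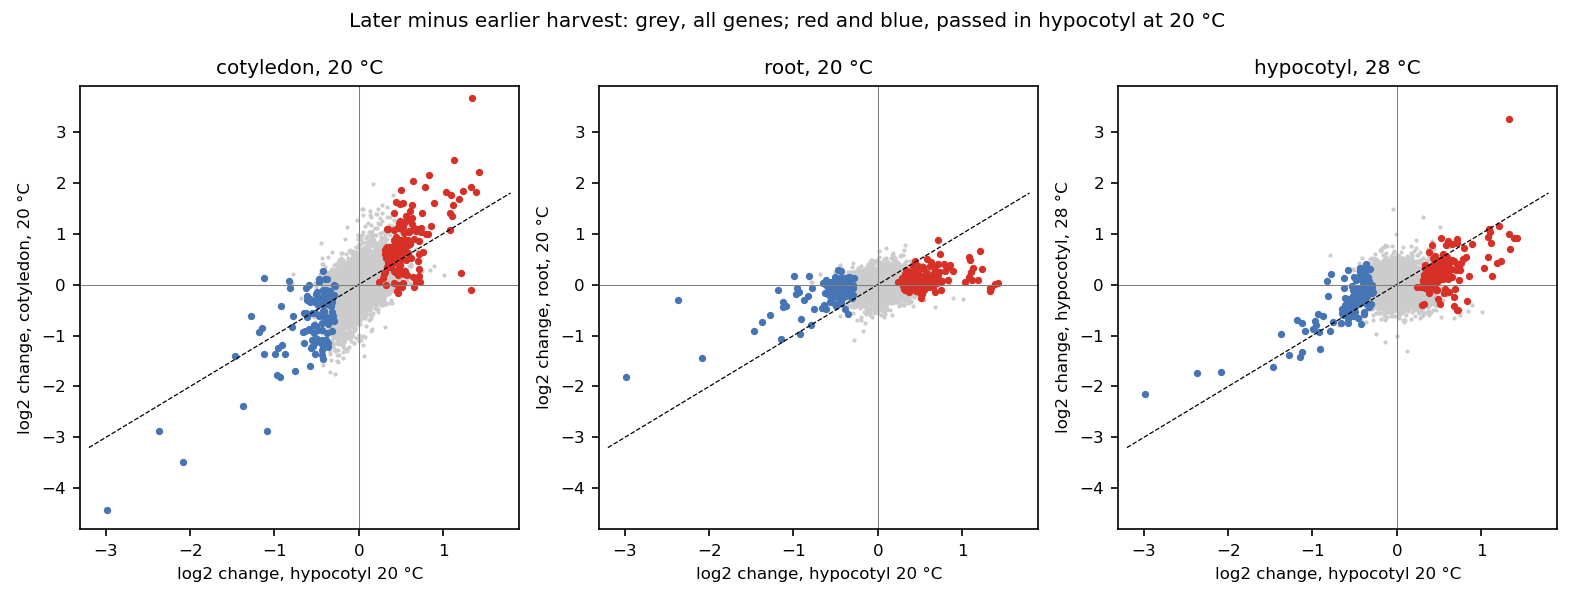
Log2 change between the harvests in the unwarmed hypocotyl (x axis) against the change over the same interval in cotyledon at 20 °C, root at 20 °C and hypocotyl at 28 °C (y axes); each dot is a gene, red or blue where it rose or fell in the unwarmed hypocotyl, and the dashed line marks equal change. Coloured dots mostly lie beyond the line in the cotyledon, where their medians are 0.74 and -0.62, and near 0 in the root, where they are 0.11 and -0.11.

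The change in the hypocotyl differed from that in the cotyledon for 674 genes (5.05%, 3.16% positive and 1.89% negative), in a test of the difference itself. With arrays centred on reference genes the count was 355, of which 212 were positive and 143 negative. Of the 259 genes that changed in the hypocotyl, 78 were among them, 63 with a larger change of the same sign in the cotyledon and 15 with a larger change in the hypocotyl. AT5G48490 rose by 3.67 in the cotyledon against 1.34 here (difference -2.33 ± 0.19, limma adjusted p = 3.94e-09). COR27 and HYH also changed more in the cotyledon, with differences of 1.44 and -0.71. For COR27 the organs differed mainly at the earlier harvest. Its means were 7.56 earlier and 4.58 later in hypocotyl, and 8.89 and 4.47 in cotyledon. SUFE2 had 0.12 in the cotyledon (difference -1.25 ± 0.25, limma adjusted p = 0.00177), and SPCH had 0.07 there (difference -0.90 ± 0.25, limma adjusted p = 0.0262). Both were lower in the cotyledon than in the hypocotyl: SUFE2 had means of 3.85 earlier and 3.98 later, and SPCH 4.94 and 5.01. At the level of SUFE2 a fall could go unseen. SPCH in the cotyledon lay above its 20 °C root means of 3.82 and 3.59, and whether its level hid a fall was not tested. AT5G15950 rose by 1.21 here and had 0.23 in the cotyledon (difference 0.98, limma adjusted p = 6.3e-05). SWEET13, a sucrose exporter, had 0.17 in the hypocotyl and 1.97 in the cotyledon. The 259 genes were picked on hypocotyl arrays that also enter these differences, so the counts among them are not independent of that choice.

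Against the root, the change differed for 29 genes (0.217%, 0.135% positive and 0.0824% negative), of which 16 had risen and 8 had fallen in the hypocotyl. The same hypocotyl arrays enter both tests, so these 2 counts are not independent either. AT1G07050 fell by 2.36 in the hypocotyl and had -0.31 in the root (difference -2.06, limma adjusted p = 4.63e-06). AT1G64500, AT2G27420, AT5G48490 and AT2G19650 rose in the hypocotyl and had between -0.07 and 0.03 in the root. All of these, and AT1G07050, were low in the root. AT5G48490, the highest of them there, had root means of 4.54 earlier and 4.47 later. At such levels a fall in the root, as that of AT1G07050 in the hypocotyl, could go unseen. Whether the low root level bears on the genes that rose was not tested. The count was 14 without earlier replicate 1, 15 without earlier replicate 2 and 16 without later replicate 2 of the hypocotyl. With arrays centred on reference genes, 32 differences were positive and 4 negative, against 18 and 11.

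**Figure D4:**
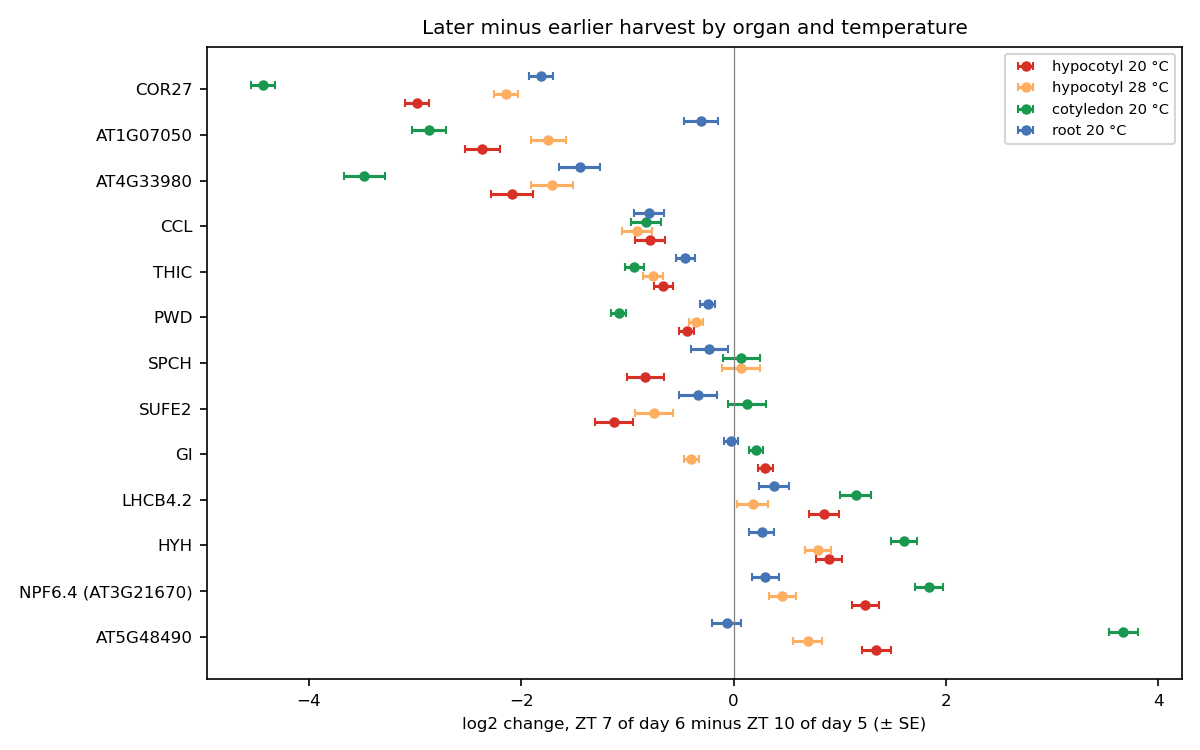
Log2 change between the harvests (x axis, later minus earlier, with the SE as a bar) of 13 genes in hypocotyl at 20 °C, hypocotyl at 28 °C, cotyledon at 20 °C and root at 20 °C. SPCH and SUFE2 fell in the unwarmed hypocotyl and lay at 0.07 and 0.12 in the cotyledon, where both were at lower levels than in the hypocotyl. AT5G48490 rose by 3.67 in the cotyledon. GI lay at 0.30 in the unwarmed and at -0.40 in the warmed hypocotyl.

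In hypocotyls moved to 28 °C, 46 of the 144 genes that rose at 20 °C also rose and 4 fell, and 46 of the 115 that fell also fell and 1 rose. The change differed between the temperatures for 88 genes (0.659%, 0.352% positive and 0.307% negative), of which 30 were among the 259. Of these 30, 26 had a change of smaller size at 28 °C and 23 one of opposite sign. The 259 were picked on 20 °C arrays that also enter this difference, which favours such a pattern, so these counts are not independent of that choice. GI rose by 0.30 at 20 °C and fell by 0.40 at 28 °C, where the later arrays also followed 24 h of warmth and the earlier ones 3 h (difference -0.70 ± 0.10, limma adjusted p = 0.00021). AT3G21670 (NPF6.4) rose by 1.24 and 0.46 (difference -0.78, limma adjusted p = 0.035). AT2G32150 rose by 0.67 at 20 °C and fell by 0.42 at 28 °C. APS3, an ATP sulphurylase, fell by 0.32 at 20 °C and had 0.30 at 28 °C (difference 0.62, limma adjusted p = 0.0112), while its call at 20 °C was lost under 11 alternatives. DFR, an enzyme of anthocyanin synthesis, had -0.05 at 20 °C and rose by 1.48 at 28 °C. The count of 88 was 17 without the unwarmed earlier replicate 1, 54 without its replicate 2, 52 and 22 without the unwarmed later replicates 1 and 2, 22 without the warmed earlier replicate 1, and 42, 29 and 162 without the warmed later replicates 1, 2 and 3. With centring on reference genes, 7 differences were positive and 25 negative, against 47 and 41.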

How the data were processed

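Per the labels, total RNA of each organ was hybridised to Affymetrix arrays. The authors deposited 1 table of log2 expression values for 22746 probe sets on 35 arrays. The submitters' processing notes name RMA and limma without versions; which arrays were normalised together is not given in the sources used here. Genes came from the platform annotation and RefSeq: 13513 probe sets name 1 gene, 503 several, and 8730 are unnamed here. The 13355 genes (for the 147 with several probe sets, the one with the highest mean) were tested, 13285 of them matched in RefSeq. 

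Limma 3.58.1 in R 4.3.3 fitted 12 group means over the 35 arrays (lmFit, eBayes, 23 residual degrees of freedom) and tested later minus earlier, and its difference from cotyledon, root and 28 °C, with Benjamini-Hochberg adjustment over all genes at 0.05. On simulated data the later-minus-earlier test recovered 81.5% of genes changed by 0.5 on the log2 scale and 98.5% of those changed by 1. Of its calls, 6.32% and 4.83% were wrong. The simulated noise was independent between arrays, so effects shared by a whole array were not covered. The tests of the differences recovered 24.5% to 28.5% and 92.5% to 94.5%, with 3.14% to 7.02% of calls wrong. The number of arrays limits the precision. 

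Named were the 12 largest rises and 12 largest falls, up to 4 members per list that passed (2 more for lists of over 20), all clock and light members, and the 5 highest and 5 lowest genes of each difference, which gives 51 genes. Another 35 with a symbol or a family were added after their values were seen. Families of at least 5 genes by symbol were also set up after the data were seen. The comparison and the lists were chosen with earlier results of these data known. A planned motif search in promoters was not run, and sequences were not used here. Alternatives were other fits, scalings, filters and array weights, and leaving out each array.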

Additional observations from a re-analysis of the deposited data

Results flagged for a closer look

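The genes given here had the most positive or the most negative differences that passed limma's test of the difference between 2 settings over the same interval. The change in the unwarmed hypocotyl minus that in the cotyledon was 1.79 for AT1G17665, 1.48 for AT4G28450, 1.47 for AT1G08610, 1.44 for COR27 and 1.44 for AT4G19430, and -2.33 for AT5G48490, -1.80 for SWEET13, -1.46 for AT1G63580, -1.44 for AT4G33666 and -1.39 for AT2G15020. The change in the hypocotyl minus that in the root was 1.41 for AT5G48490, 1.4 for AT1G64500, 1.39 for AT2G19650, 1.37 for AT2G27420 and 1.09 for AT1G73480, and -2.06 for AT1G07050, -1.17 for COR27, -1.15 for AT3G62550, -0.79 for AT3G59350 and -0.76 for AT4G01460.

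The change at 28 °C minus that at 20 °C in the hypocotyl was 1.93 for AT4G19430, 1.53 for DFR, 1.02 for AT1G70270, 0.99 for AT1G76620 and 0.88 for AT1G64490. It was -1.43 for AT2G37130, -1.23 for AT2G19970, -1.22 for AT5G10770, -1.16 for AT5G02230 and -1.09 for AT2G32150. For AT4G19430, later replicate 2 at 20 °C stood at 5.94 beside 4.38 and 4.29. Under at least 1 alternative the difference no longer passed for AT4G19430 (against the cotyledon and between temperatures), for AT4G01460 and AT3G59350 against the root, and for AT5G10770, AT1G70270, AT2G37130, AT1G64490 and AT1G76620 between temperatures.

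Probe sets that the comparisons above do not use also changed. Of 9233 without 1 named gene, 373 passed limma's test (4.04%), 213 higher and 160 lower at the later harvest, and 39 of them by 2-fold or more, with log2 changes from -2.52 to 2.01.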

How the results depend on the processing

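Of the 4 counts of genes that passed (259 between the harvests, and 674, 29 and 88 for the differences from cotyledon, root and 28 °C), 60 alternative values stayed within 1.5 times and 29 did not. A similar count can hold other genes. Between the harvests, a fit of only the 6 arrays compared called 281 genes, of which 195 were among the 259. A fit of the 12 hypocotyl arrays called 243, of which 196 were. With array weights the counts were 468 between the harvests and 89 against the root. Centred on reference genes they were 152, 355 against the cotyledon and 32 against 28 °C. With all 22746 probe sets tested they were 682, 1347, 98 and 178, and with a 2-fold minimum 26, 74, 9 and 8. With only the 12 hypocotyl arrays fitted, 49 genes differed between temperatures. Leaving out 1 array at a time gave 137 to 279, 486 to 696, 14 to 38 and 17 to 162. A fit of only the 6 arrays cannot give the 3 differences, nor one of the 12 hypocotyl arrays those from cotyledon and root. Pairing by replicate number was not clear: same-numbered later and earlier arrays deviated together at r of 0.08, 0.14 and -0.06. Differently numbered ones ran from -0.15 to 0.08. With the replicate block the counts were 259, 644, 24 and 73.

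Of 75 named genes that passed, 48 lost their call under no alternative run and none changed sign. Signs turned only among genes that had not passed. With 1 array left out, AT2G37130 ran from -0.046 to 0.27, AT1G08610 from -0.079 to 0.17, AT4G33666 from -0.048 to 0.10, DFR from -0.18 to 0.056 and AT5G52660 from -0.049 to 0.023. AT5G52660 was at 0.0017 with array weights and at 0.0073 centred on reference genes, and AT1G63580 was at -0.017 after repeated quantile normalisation. Scaling moved the median of all genes from 0.011 to between -0.0043 and 0.027. With 3 arrays a group, changes near the median standard error of 0.11 are not detectable.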
